A study of Mus musculus with 21 samples.

Results

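Genes known as markers and regulators of Cajal-Retzius neurons were examined in 3 Pax6 mutant lines. They were 8 genes, Reln, Calb2, Lhx1, Lhx5, Ebf2, Ebf3, Trp73 and Nhlh2, out of 18193 genes that the arrays name. The rule that names them uses no measured value, but they were chosen with earlier results of these data known. A total of 15 probe sets are annotated to them alone, out of 45037 non-control probe sets. Of the 15, 11 passed the filter on low signal, and each of the 8 genes had at least 1 that did. The probe set that represents each gene lay above the filter's level, the 40th percentile of the array, on all 21 arrays.

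Cajal-Retzius cells are early-born neurons of the marginal zone, the outermost layer of the embryonic cerebral cortex. They secrete Reelin, a large extracellular protein that binds receptors on migrating cortical neurons and is needed for the ordered layering of the cortex. In the mouse they arise outside the main cortical wall, at the cortical hem, the septum, the pallial-subpallial boundary (also called the antihem) and the thalamic eminence, and migrate over the cortical surface. The transcription factor Pax6 is expressed in the progenitors of the cortical wall and at the pallial-subpallial boundary.

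Total RNA from the rostral part of the cerebral cortex of mice was measured at embryonic day 14, on 21 Affymetrix arrays with 1 biological replicate on each. The groups were 4 Pax6 Sey mutants and 3 Wild type littermates on the strain C57BL/6J x DBA/2J (B6D2F1), 3 Pax6 Leca4 mutants and 4 Wild type littermates on 129 S6, and 4 Pax6 Leca2 mutants and 3 Wild type littermates on 129 S6. Sey (Small-eye) is known as a mutation that truncates Pax6, and Leca4 and Leca2 as single amino acid changes in different subdomains of its DNA-binding paired domain. The labels do not state whether the mutants were homozygous or how many embryos were pooled, and no embryo was treated. Each mutant group was set against its own littermates, because strain and the distribution of array values differed between lines. Levels are therefore not compared across lines, nor between different probe sets.

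Pax6 transcript was higher than in littermates in Sey mutants (log2 change 0.56 ± 0.0916), in Leca4 mutants (0.49 ± 0.0916) and in Leca2 mutants (0.93 ± 0.0916), where the error is the standard error of the fit and the adjusted p-values of limma were 0.000184, 0.00276 and 1.1e-05. Since the lines carry point mutations, the transcript level does not check the mutation itself. The lowest correlation between arrays of a group, over all probe sets, was 0.9931. Transcripts of sex-linked genes read 3 of the 4 Sey mutants as female and 1 as male, against 3 male littermates. In the Leca4 line 1 of 3 mutants and 1 of 4 controls were female, and in the Leca2 line 2 of 4 mutants and 3 of 3 controls were female.

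Promoter sequences of 5 of the 8 genes were taken from RefSeq on the mouse build GRCm38.p6, as windows of 300 bases that hold 250 bases before and 50 after the transcription start. Calb2, Lhx5 and Ebf2 are named only. The windows below are those of Lhx1 and Ebf3, whose transcripts rose in Sey mutants, and of Reln, whose transcript did not pass the test. The last is that of Nhlh2, the window with both forms of the E-box that were searched. Capitals mark these forms, CAGATG and CAGCTG, to which bHLH proteins such as Nhlh2 and the neurogenins can bind. Other forms of the E-box were not searched.
Lhx1, chr11:84525485-84525784, minus strand: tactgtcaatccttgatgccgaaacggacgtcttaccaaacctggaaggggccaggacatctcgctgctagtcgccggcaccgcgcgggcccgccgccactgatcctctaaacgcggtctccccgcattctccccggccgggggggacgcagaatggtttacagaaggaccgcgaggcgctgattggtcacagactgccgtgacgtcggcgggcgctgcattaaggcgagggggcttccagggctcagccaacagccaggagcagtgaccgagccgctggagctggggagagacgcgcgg
Ebf3, chr7:137314396-137314695, minus strand: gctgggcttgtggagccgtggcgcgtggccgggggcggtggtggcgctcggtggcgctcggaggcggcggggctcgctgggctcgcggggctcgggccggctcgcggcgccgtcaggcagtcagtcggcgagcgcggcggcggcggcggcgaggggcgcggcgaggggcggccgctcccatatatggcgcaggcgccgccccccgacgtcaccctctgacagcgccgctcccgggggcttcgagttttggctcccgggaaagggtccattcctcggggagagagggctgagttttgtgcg
Reln, chr5:22344656-22344955, minus strand: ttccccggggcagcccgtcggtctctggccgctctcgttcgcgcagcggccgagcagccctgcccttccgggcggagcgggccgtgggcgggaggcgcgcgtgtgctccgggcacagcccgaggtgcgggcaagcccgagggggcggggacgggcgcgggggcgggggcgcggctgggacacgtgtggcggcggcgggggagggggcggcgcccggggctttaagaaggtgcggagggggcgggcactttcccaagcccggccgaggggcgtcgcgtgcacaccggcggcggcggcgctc
Nhlh2, chr3:102009895-102010194, plus strand: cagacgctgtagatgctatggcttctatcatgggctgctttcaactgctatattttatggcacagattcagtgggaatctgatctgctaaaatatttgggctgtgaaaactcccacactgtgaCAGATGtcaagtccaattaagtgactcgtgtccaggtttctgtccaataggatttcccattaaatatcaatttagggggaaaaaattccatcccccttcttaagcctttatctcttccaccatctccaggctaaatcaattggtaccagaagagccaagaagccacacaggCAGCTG

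The windows of Reln, Ebf3 and Lhx1 are rich in G and C. Their GC content was 80.7%, 77% and 65.7%, and they held 47, 46 and 31 CpG dinucleotides, against a median of 52.7% GC and 7 CpG over 32851 promoter windows of the same length. The Nhlh2 window had 43.3% GC and 2 CpG. Trp73 has 2 annotated starts, whose windows (chr4:154139826-154140125 and chr4:154097124-154097423, both minus strand) had 77.7% and 57.7% GC. On both strands CAGCTG was in 2 of the 6 windows of these genes (Nhlh2 and the first Trp73 window), and it is in 16.3% of all windows. CAGATG was in 1 of the 6 windows (Nhlh2), against 17.2% of all windows. The homeodomain core TAATTA, an Ebf-type palindrome and TATAAA were in none of the 6, and are in 5.29%, 0.904% and 13.6% of all windows. These matches describe the letters in the windows only.

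In Sey mutants, most of the Cajal-Retzius genes were expressed at a higher level than in littermates. Calb2, Lhx5, Ebf2, Ebf3, Lhx1 and Trp73 rose, with log2 changes between 0.46 and 1.21, while Reln and Nhlh2 did not pass the test. Of the 8 genes 6 were called higher and 0 lower (limma, two-sided, Benjamini-Hochberg adjusted p under 0.05), where 10.7% of the 13850 genes tested were called higher and 9.41% lower. In 7 of the 8 every mutant array lay above every littermate array, which held for 16.5% of all genes. The median log2 change of the 8 was 0.849, against -0.00025 over all genes tested. In RNA from whole tissue, more cells of a type and more RNA per cell cannot be told apart.

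**Figure D1:**
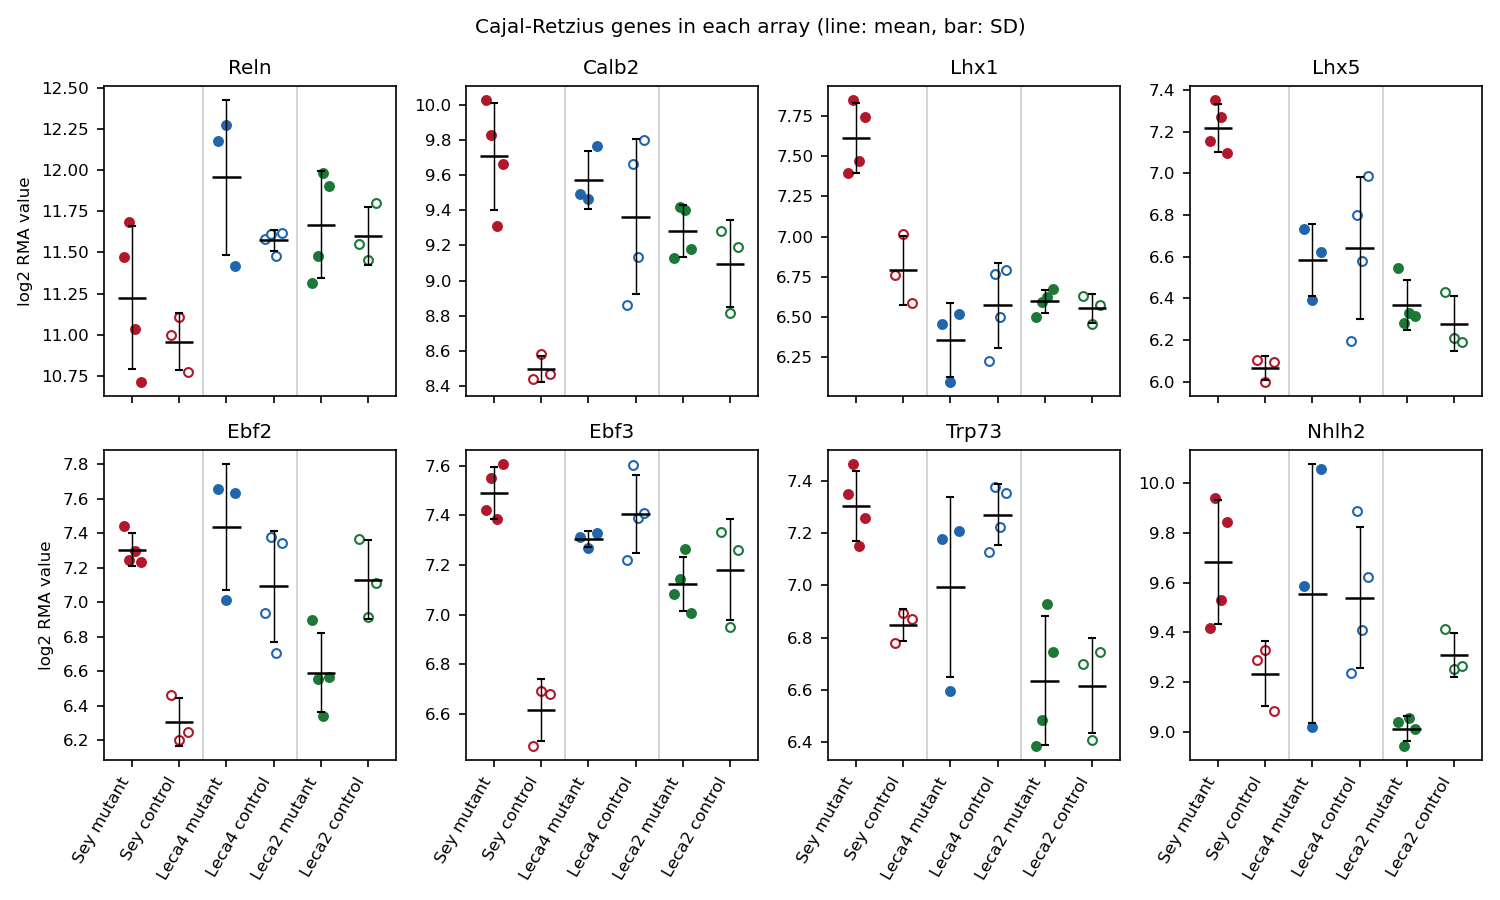
Log2 RMA value (vertical axis, own scale in each panel) of the representative probe set of each of the 8 genes on each of the 21 arrays; within each line mutants (filled) stand left of their Wild type littermates (open), horizontal lines mark group means and bars the SD. In the Sey line mutants lie above all littermates for every gene but Reln; in the Leca4 line the groups overlap for all 8, and in the Leca2 line mutants lie below all littermates for Ebf2 and Nhlh2.

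Reln encodes Reelin itself. Its log2 values were 11.472, 11.683, 11.035 and 10.714 in the 4 Sey mutants, against 10.997, 11.107 and 10.772 in the 3 littermates. Mutants 1 and 2 were above all littermates and mutant 4 was below all of them, so the groups overlapped. The log2 change was 0.27 ± 0.217 (95% interval -0.187 to 0.721, adjusted p = 0.439 in limma), and it was 0.115 without mutant 2 and 0.438 without mutant 4. The mutants spread more widely (SD 0.435, n = 4) than the littermates (SD 0.171, n = 3). A second Reln probe set lay below the filter's level on all 21 arrays.

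Calb2 encodes calretinin, a calcium-binding protein used as a marker of Cajal-Retzius cells and also made by some cortical interneurons. Its values were 10.028, 9.831, 9.309 and 9.663 in Sey mutants, against 8.441, 8.58 and 8.469 in littermates. The lowest mutant exceeded the highest littermate by 0.729 on the log2 scale. This was the largest of the 8 changes in Sey mutants, at 1.21 ± 0.191 (95% interval 0.811 to 1.61, adjusted p = 0.000122 in limma).

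The LIM-homeodomain factors Lhx5 and Lhx1 are present in Cajal-Retzius cells, and Lhx5 is expressed in the hem and in the thalamic eminence. Lhx5 had values of 7.153, 7.351, 7.272 and 7.098 in Sey mutants, against 6.104, 5.999 and 6.092 in littermates. The groups were separated by 0.994 on the log2 scale, the widest gap among the 8 genes, and the arrays within each group lay close together. The change was 1.15 ± 0.133 (adjusted p = 3.97e-06 in limma).

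Lhx1 had values of 7.393, 7.848, 7.467 and 7.745 in Sey mutants, against 6.76, 7.018 and 6.59 in littermates, a change of 0.82 ± 0.139 (adjusted p = 0.000247). All 4 mutants were above the 3 littermates. A second Lhx1 probe set, with 6.404, 6.553, 6.495 and 6.231 in Sey mutants and 5.78, 6.008 and 5.553 in littermates, showed a change of 0.64 in the same direction, and there too the groups did not overlap.

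Ebf2 and Ebf3 belong to the COE (Ebf) family of helix-loop-helix factors and mark Cajal-Retzius cells of several sources. Ebf2 had values of 7.44, 7.246, 7.298 and 7.23 in Sey mutants, against 6.461, 6.202 and 6.246 in littermates. Its change was 1.00 ± 0.172 (adjusted p = 0.000293 in limma), with every mutant above every littermate. Of the 2 further Ebf2 probe sets, which failed the filter, one lay above the filter's level on 2 of the 21 arrays and showed a change of 1.05, and the other lay below it on every array and showed a change of 0.35.

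Ebf3 had values of 7.42, 7.548, 7.386 and 7.605 in Sey mutants, against 6.47, 6.694 and 6.681 in littermates. The change of 0.87 ± 0.0957 had the smallest p of the 8 genes (adjusted p = 1.98e-06 in limma). All 3 Ebf3 probe sets passed the filter and moved the same way: the other two had changes of 0.97 and 1.11, each with mutants above all littermates.

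Trp73 encodes p73, a relative of p53 that is made by hem-derived Cajal-Retzius cells. Its values were 7.348, 7.463, 7.149 and 7.259 in Sey mutants, against 6.781, 6.895 and 6.87 in littermates, a change of 0.46 ± 0.14 (adjusted p = 0.0254 in limma). The groups did not overlap, but the call was lost when sex was added to the fit (change 0.32, adjusted p = 0.181). Without Sey mutant 1, Sey mutant 2 or any 1 of Sey controls 1, 2 and 3 the adjusted p was 0.0546, 0.0712, 0.094, 0.0522 and 0.0597. The other Trp73 probe set lay below the filter's level on every array.

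Nhlh2 encodes a bHLH factor of young neurons that is also used as a marker of Cajal-Retzius cells. Its values were 9.417, 9.941, 9.529 and 9.844 in Sey mutants, against 9.289, 9.33 and 9.084 in littermates. The lowest mutant was 0.087 above the highest littermate, so the groups did not overlap, but the change of 0.45 ± 0.183 did not pass the test (adjusted p = 0.0939 in limma). It passed with the arrays of the Sey line alone (adjusted p = 0.0476), with array weights (0.0207), and without Leca4 mutant 2 (0.0331) or Leca4 mutant 3 (0.0413), whose arrays enter the shared estimate of the spread. With sex in the fit the change was 0.30 (adjusted p = 0.379), and over the fits that left out 1 array each the adjusted p went up to 0.269.

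**Figure D2:**
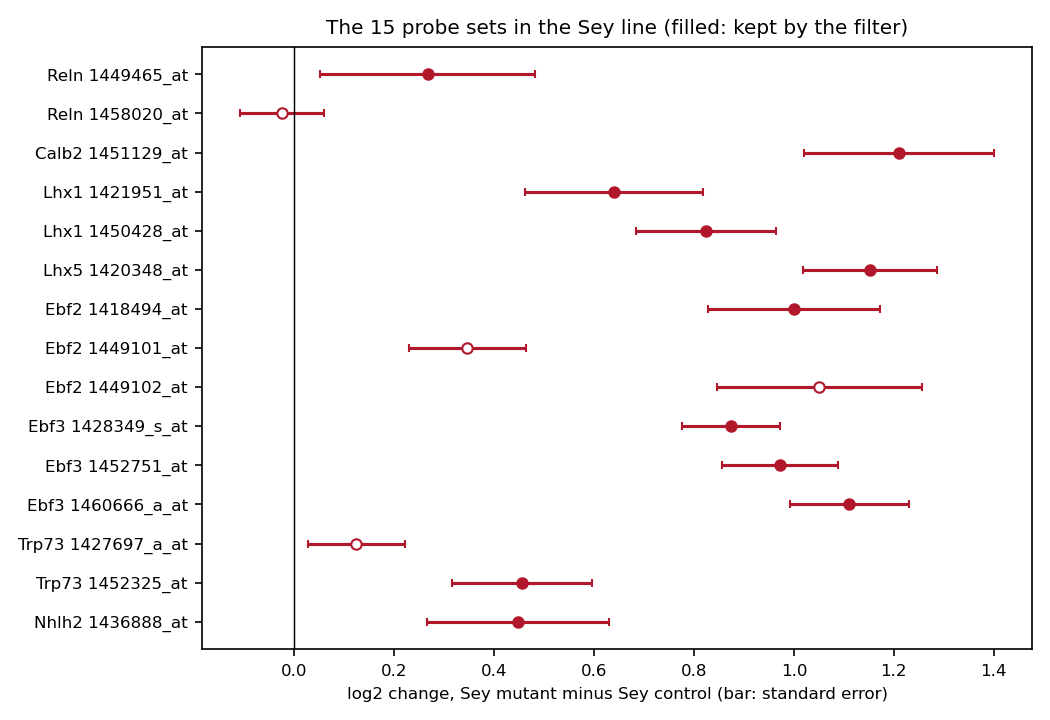
Log2 change, Sey mutant minus Sey littermates (horizontal axis), for all 15 probe sets of the 8 genes, with bars for the standard error of the fit; filled points passed the filter on low signal and the 4 open points did not. The 3 Ebf3 probe sets lie between 0.87 and 1.11 and both Lhx1 probe sets between 0.64 and 0.82, while the 4 open points range from -0.02 to 1.05.

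**Figure D3:**
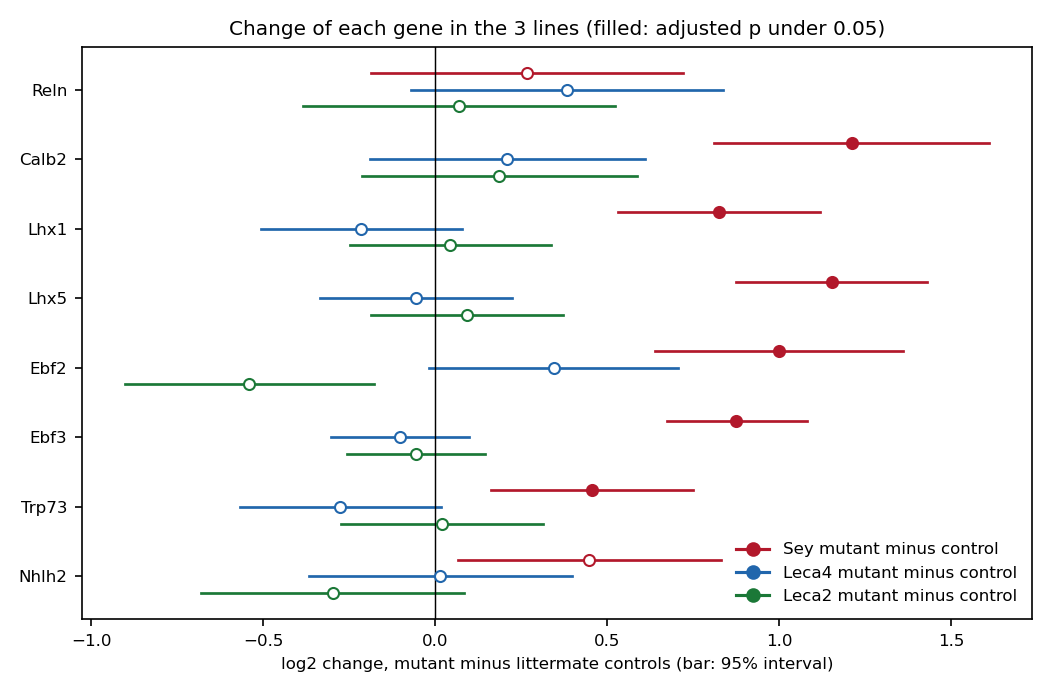
Log2 change, mutant minus littermates (horizontal axis), of each of the 8 genes in the Sey, Leca4 and Leca2 lines, with 95% intervals of the limma fit; filled points are called at an adjusted p under 0.05. The 6 filled points all belong to the Sey line.

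The Sey groups differed in sex, and the 1 male mutant (replicate 2) allows a comparison with the 3 male littermates. It lay above the highest littermate for each of the 8 genes. Its difference from the mean of the littermates was 1.33 for Calb2, 1.29 for Lhx5, 1.06 for Lhx1, 0.94 for Ebf2, 0.93 for Ebf3, 0.72 for Reln, 0.71 for Nhlh2 and 0.61 for Trp73. This comparison was chosen after the data were seen, and a lone array shows no spread of its own group. A term for sex in the fit over all arrays left 5 of the 6 calls in Sey mutants, all but Trp73.

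In Leca4 mutants none of the 8 genes passed the test, and the groups overlapped for all 8. Limma called 0 of 8 genes, where 5.62% of all genes were called, and 0 of the 8 had an unadjusted p under 0.05. Without overlap were 0 of 8, against 15.3% of all genes. The log2 changes ranged from -0.276 to 0.383, with a median of -0.0207 against 0.006 over all genes.

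Reln had values of 12.177, 12.273 and 11.417 in Leca4 mutants, against 11.58, 11.614, 11.477 and 11.62 in littermates. Mutants 1 and 2 were above all littermates and mutant 3 was below all of them. The change was 0.38 ± 0.217 (95% interval -0.071 to 0.837, adjusted p = 0.379 in limma). Without mutant 3 it was 0.65 (adjusted p = 0.0963), so a single array moved the value by more than the standard error.

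Ebf2 had values of 7.659, 7.015 and 7.632 in Leca4 mutants, against 6.938, 7.378, 6.707 and 7.341 in littermates (change 0.34 ± 0.172, adjusted p = 0.301). Mutants 1 and 3 were above all littermates and mutant 2 lay among them. Trp73 had values of 7.179, 6.598 and 7.207 in Leca4 mutants, against 7.127, 7.377, 7.225 and 7.355 in littermates. Its change of -0.28 ± 0.14 did not pass the test (adjusted p = 0.307), and mutant 2 alone lay below all littermates.

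Calb2 had a change of 0.21 ± 0.191 in Leca4 mutants, with 0.04 to 0.36 over the fits that left out 1 array each. Nhlh2 had a change of 0.02 ± 0.183, with -0.24 to 0.28 over those fits, so its sign rested on single arrays. Lhx1, Lhx5 and Ebf3 had changes of -0.21 ± 0.139, -0.06 ± 0.133 and -0.10 ± 0.0957. Their 95% intervals were -0.507 to 0.0775, -0.336 to 0.223 and -0.303 to 0.0986, which leave out the values measured for the same genes in Sey mutants.

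The Leca4 arrays varied together within their groups. Mutant 2 was the lowest of the 3 mutants for 7 of the 8 genes and the highest for Reln. Control 1 was the lowest of the 4 littermates for 6 of the 8, and controls 2 and 4 were each the highest for 4. The mean level of 12 genes of the thalamic eminence and diencephalon was 6.543, 6.475 and 6.8 in mutants 1 to 3, against 6.411, 6.599, 6.55 and 6.64 in controls 1 to 4. That of 13 genes of the cortical hem and choroid plexus was 7.13, 6.89 and 7.74 in the mutants, against 6.83, 7.18, 7.32 and 7.43 in the controls. Both means were lowest in mutant 2 and in control 1, as most of the 8 genes were, but control 3 had the second highest hem mean. The mean of factors known to set the Cajal-Retzius fate was lowest in the same arrays (8.909 and 9.213). Other lists differed. The septal mean was lowest in mutant 1 (7.151) and control 1 (7.033), and the antihem mean in mutant 2 (8.365) and control 2 (8.2). The Reelin pathway and pan-neuronal means were lowest in mutant 3 and control 2. The part of these lists in the values was not tested.

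In Leca2 mutants limma called 0 of the 8 genes, where 0.477% of all genes were called, and 1 of the 8, Ebf2, had an unadjusted p under 0.05. The median log2 change was 0.0319, against 0.00525 over all genes, and the range was -0.541 to 0.186. In 2 of the 8 genes, Ebf2 and Nhlh2, all mutants lay below all littermates, which held for 3.34% of all genes.

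Ebf2 had values of 6.897, 6.553, 6.341 and 6.566 in Leca2 mutants, against 7.368, 6.911 and 7.111 in littermates. The groups were 0.014 apart, so the highest mutant all but touched the lowest littermate. The change of -0.54 ± 0.172 (95% interval -0.902 to -0.179) did not pass the test over all genes, with an adjusted p of 0.302 in limma. The change ranged from -0.65 to -0.42 over the fits that left out 1 array each.

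The second Ebf2 probe set, which failed the filter, had 5.252, 4.727, 4.747 and 4.585 in Leca2 mutants, against 5.943, 5.095 and 5.329 in littermates, a change of -0.63 with overlapping groups. The third had a change of -0.09. The uncalled Ebf2 value in Leca2 mutants was negative, and the called one in Sey mutants positive.

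Nhlh2 had values of 9.038, 8.943, 9.058 and 9.013 in Leca2 mutants, against 9.413, 9.253 and 9.266 in littermates. The mutants lay within a narrow range and 0.195 below the lowest littermate. The change of -0.30 ± 0.183 did not pass the test (adjusted p = 0.88 in limma, which uses 1 estimate of the spread for all groups).

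For the remaining genes the Leca2 groups overlapped and the changes were small. Calb2 changed by 0.19 ± 0.191, Lhx5 by 0.09 ± 0.133, Reln by 0.07 ± 0.217, Lhx1 by 0.04 ± 0.139, Trp73 by 0.02 ± 0.14 and Ebf3 by -0.06 ± 0.0957. The 95% interval for Ebf3 was -0.257 to 0.145. Among the littermates, control 2 was the lowest for 7 of the 8 genes and control 1 the highest for 6, and the hem and choroid plexus mean was likewise lowest in control 2 (6.81) and highest in control 1 (7.38). The means of the septal genes (7.127 and 7.571), of the thalamic eminence and diencephalon genes (6.234 and 6.662) and of factors known to set the Cajal-Retzius fate (9.234 and 9.718) had their lowest and highest values in the same 2 controls. The antihem mean was instead lowest in control 1 (7.988) and highest in control 3 (8.118). The means of the Reelin pathway, pan-neuronal, and preplate and subplate genes were also lowest in control 1. The part of these lists in the result was not tested.

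The differences between the mutants were tested directly, as the Sey change minus the Leca4 or Leca2 change, and these differences share the Sey arrays. Strain goes with line in both, so an effect of the allele and of the strain cannot be told apart. Against Leca4, 5 of the 8 genes differed and were higher in Sey, where 6.76% of all genes differed in that direction. The differences were 1.21 ± 0.188 for Lhx5 (adjusted p = 0.000251), 1.04 ± 0.197 for Lhx1 (0.00161), 1.00 ± 0.27 for Calb2 (0.0191), 0.98 ± 0.135 for Ebf3 (7.66e-05) and 0.73 ± 0.198 for Trp73 (0.0193), all from limma. Reln did not differ beyond its error, at -0.12 with a 95% interval of -0.758 to 0.526. The second Lhx1 probe set had a difference of 0.75 and was not called (adjusted p = 0.0743 in limma over the probe sets that passed the filter). With a term for sex, Calb2 (adjusted p = 0.0522) and Trp73 (0.0584) lost the call, and Trp73 also did without Leca4 mutant 2 (0.0571). Ebf2 (0.66 ± 0.244, adjusted p = 0.086) passed without Leca4 control 3 (0.0339).

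Against Leca2, 5 of the 8 genes differed, all higher in Sey, where 3.43% of all genes did. Ebf2 had the largest difference, 1.54 ± 0.244 (adjusted p = 0.000523 in limma), from a called change of 1.00 in Sey and an uncalled one of -0.54 in Leca2. The others were Lhx5 with 1.06 ± 0.188 (0.00156), Calb2 with 1.03 ± 0.27 (0.0266), Ebf3 with 0.93 ± 0.135 (0.000246) and Lhx1 with 0.78 ± 0.197 (0.0208). With a term for sex Calb2 (0.208) and Lhx1 (0.17) lost the call. The second Lhx1 probe set had a difference of 0.59 and was not called (adjusted p = 0.241 in limma over the probe sets that passed the filter). With probe sets averaged per gene the Lhx1 difference was 0.69 and lost the call (0.0593). Without Sey control 1, Sey control 3 or Leca2 control 1, Calb2 and Lhx1 both lost the call, which left 3 of the 8. Calb2 also lost it without Sey mutant 1 (0.0536) or Leca2 control 3 (0.0633). Nhlh2 (0.75 ± 0.258, adjusted p = 0.0962) passed without Leca4 mutant 2 (0.0316) or 3 (0.0412).

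Between Leca4 and Leca2, both on 129 S6, limma called 0 of 8 differences, where 2.38% of all genes were called, and 1 had an unadjusted p under 0.05. That gene was Ebf2, with a difference of 0.89 ± 0.244 (95% interval 0.374 to 1.4, adjusted p = 0.0622). It passed with array weights (adjusted p = 0.0251), and without Leca4 mutant 2, Leca4 control 2 or Leca2 mutant 1, where 1 of the 8 was called each time.

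**Figure D4:**
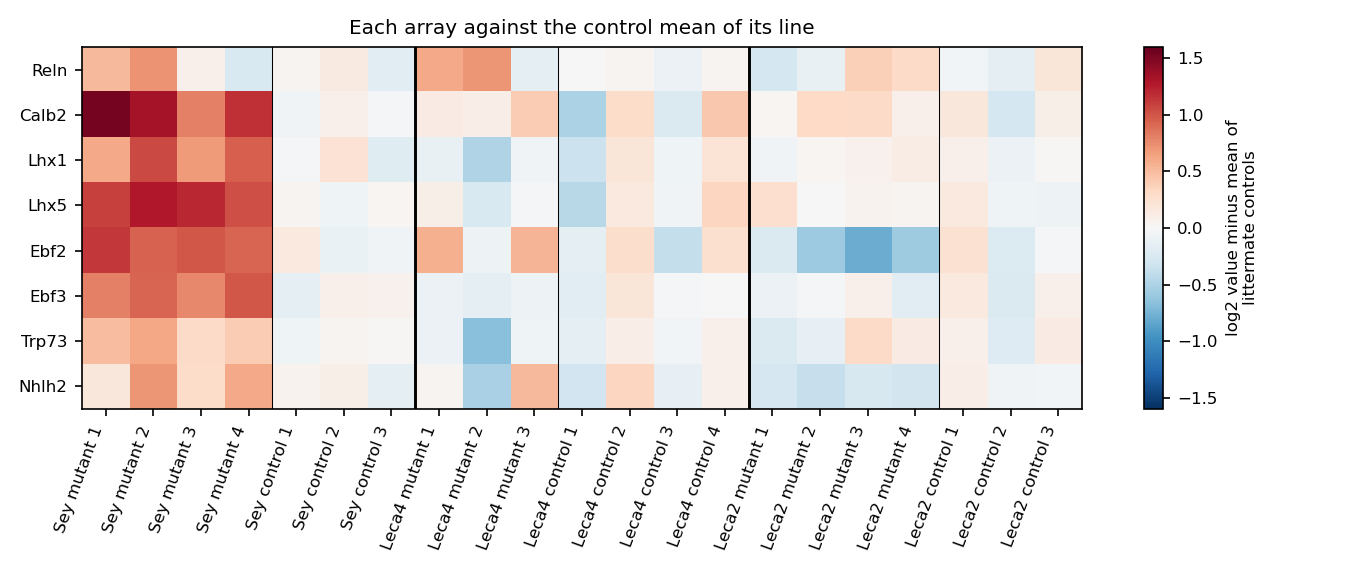
Deviation of each array from the mean of its own line's littermates (colour, log2) for the 8 genes (rows) on the 21 arrays (columns, mutants left of littermates within each line). The 4 Sey mutants are raised for all genes but Reln, which is lower than the littermate mean in mutant 4; the Leca4 and Leca2 arrays show no such block.

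The 8 genes were then set against each other across arrays. After subtraction of the littermate mean of each line, Pearson's r over the 21 arrays was 0.928 between Lhx5 and Ebf3, 0.924 between Lhx1 and Lhx5 and 0.907 between Calb2 and Lhx5, and the lowest r among these 7 was 0.513 (Ebf2 and Trp73). Reln had lower values of r, between -0.00443 and 0.339, with the other 7. These points share their groups, and the 4 Sey mutants lie apart from the rest for most of these genes.

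With the mean of each group subtracted instead, which takes the group differences out, r fell to 0.598 for Lhx1 and Lhx5 and to 0.361 for Lhx5 and Ebf3. The closest pair was then Lhx1 and Nhlh2 (0.841), followed by Lhx5 and Ebf2 (0.675). The lowest among the 7 genes other than Reln was Ebf2 and Ebf3 (0.204). Reln stood between -0.285 and 0.253, so the ranges overlapped. The arrays share their dissection and their hybridization, and these values are descriptions over 21 arrays.

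The genes whose pattern over the 21 line-centred arrays was most like that of the 6 called genes were found by Pearson's r. The search ran over all genes tested other than the 8. As above, the arrays share their groups, and these values describe patterns only. They were Wls (0.9583), Wif1 (0.9578) and Gbx2 (0.9463) for Ebf3, and Wls (0.951), Rab31 (0.9506) and Gabpb1 (0.9497) for Lhx5. For Calb2 they were Rcan2 (0.947), Nova1 (0.9434) and Bmp2 (0.9246), and for Lhx1 Rfx4 (0.9355), Arhgap11a (0.9346) and Insm2 (0.9278). For Ebf2 they were Gmppb (0.9323), Uncx (0.929) and R3hcc1 (0.9285), and for Trp73 Nr2f2 (0.901), Pomt1 (0.8803) and Cpsf7 (0.8534). The genes most like the mean of the 8 standardised profiles were Cacna2d2 (0.9414), Rab31 (0.9392), Rcan2 (0.9375), Socs2 (0.9365) and Lhx9 (0.9323). With quantile normalization over all arrays, 2 of the 3 genes were shared for each of these genes, and all 3 for Ebf3.

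Other markers of Cajal-Retzius cells moved in both directions in Sey mutants. Of 14 tested, 5 rose and 2 fell, where 10.7% of all genes rose and 9.41% fell. Zic1, a zinc finger factor of septal Cajal-Retzius cells that is also made in the septum and the meninges, rose by 1.22 ± 0.185, and Tmem163, a zinc transporter, by 1.10 ± 0.0938. The calcium channel subunit Cacna2d2 rose by 0.90 ± 0.0961, the nuclear receptor Nr2f2 by 0.46 ± 0.103 and the chemokine receptor Cxcr4 by 0.44 ± 0.123, with adjusted p-values between 9.82e-08 and 0.0149 in limma. The T-box factors Eomes and Tbr1, which are also made by many cortical neurons and their progenitors, fell by 1.64 and 0.86. The median of the 14 was 0.148.

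In Leca4 mutants the zinc finger cofactor Zfpm2 rose (0.63 ± 0.0857) and Tmem163 (-0.46 ± 0.0938) and Nr2f2 (-0.35 ± 0.103) fell, out of the same 14. Of all genes 5.62% were called in either direction in Leca4 mutants, and 0.477% in Leca2 mutants. In Leca2 mutants Tmem163 rose (0.96 ± 0.0938, adjusted p = 9.85e-06 in limma) and the other 13 were not called. Tmem163 thus rose in Sey and Leca2 mutants, and fell in Leca4 mutants.

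Factors known to restrict or promote the Cajal-Retzius fate were tested as 13 genes. In Sey mutants Emx2 (0.72 ± 0.168) and Lhx2 (0.40 ± 0.109), homeodomain factors of the cortical primordium, rose. The proneural bHLH genes Neurog1 and Neurog2 fell by 2.67 and 1.61, and the zinc finger gene Fezf2 fell by 0.35. Dmrta1, a doublesex-related factor, was at least 4.56-fold lower in Sey mutants, whose arrays all lay at or below the 40th percentile, with a mean of 3.91 against 7.58 in littermates (adjusted p = 2e-08 in limma). In Leca4 mutants Neurog1 rose (1.34 ± 0.154) and Dmrta1 fell (-2.15 ± 0.277), and in Leca2 mutants Neurog1 fell (-1.43 ± 0.154).

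Reelin acts through the receptors Vldlr and Lrp8 (ApoER2) and the intracellular adaptor Dab1, which Fyn and Src phosphorylate. Of 24 genes of this pathway, all of them tested, 8 fell and 0 rose in Sey mutants, where 9.41% of all genes fell. Dab1 had a log2 level of 9.997 ± 0.126 in Sey mutants (SD, n = 4), against 10.88 ± 0.0506 in littermates (SD, n = 3), a change of -0.89 ± 0.104 (adjusted p = 4.64e-06 in limma). Lrp8 fell by 0.50 and Vldlr by 0.41, so both receptors and the adaptor were lower in Sey mutants, while the ligand Reln did not pass the test. On the same arrays 8 of 15 pan-neuronal genes fell, and their array means were 10.63 to 10.76 in Sey mutants, against 10.84 to 10.97 in littermates. The part of this in the Reelin pathway values was not tested.

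Adamts3, a protease that cleaves Reelin, fell by 0.75 (adjusted p = 0.000992). The adaptor Nck2 fell by 0.46, the Dab1-interacting protein Dab2ip by 0.37, N-cadherin (Cdh2) by 0.36 and the kinase Fyn by 0.25, with adjusted p-values between 0.000117 and 0.00261. The other 16 genes, among them Src, Crk, Crkl, Cdk5 and Pafah1b1, were not called. The median of the 24 was -0.0457. Only 3 of the 8 changed by at least 1.4-fold, and with male embryos alone 2 were called.

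**Figure D5:**
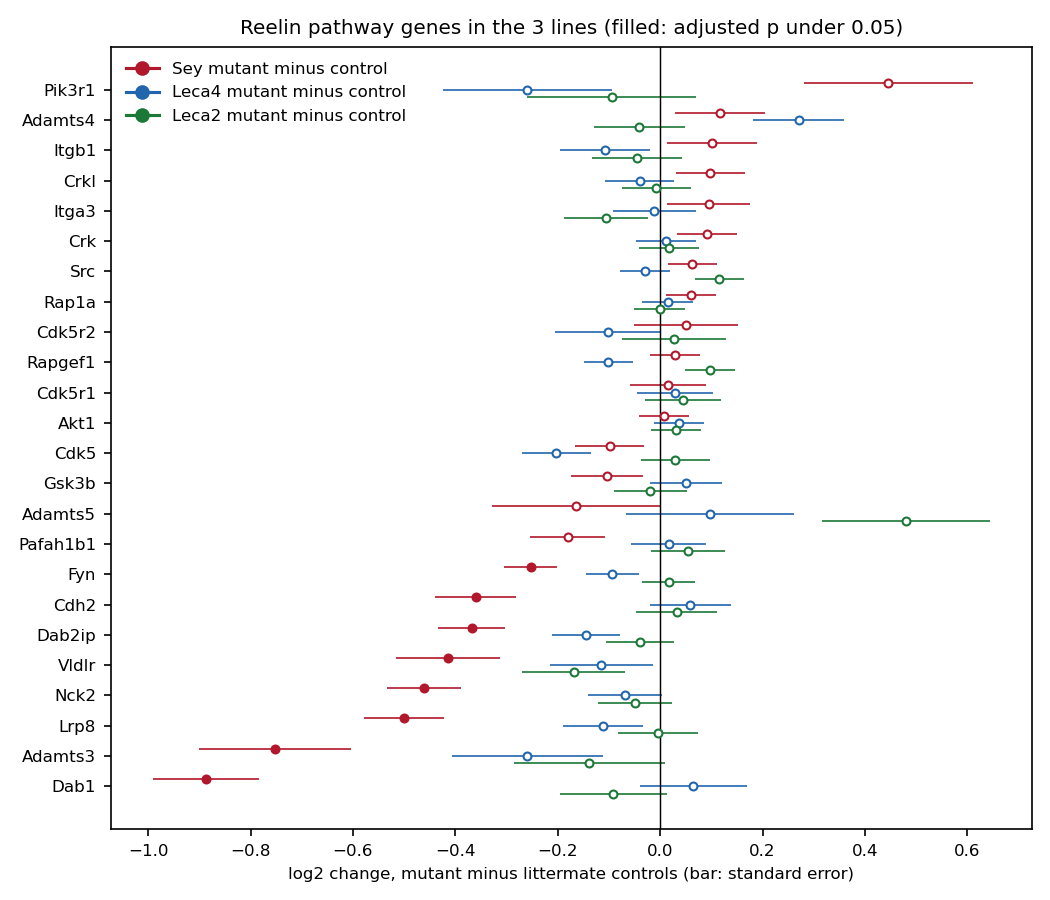
Log2 change, mutant minus littermates (horizontal axis), of the 24 Reelin pathway genes in the Sey, Leca4 and Leca2 lines, with bars for the standard error of the limma fit; filled points are called at an adjusted p under 0.05. The 8 called genes lie left of 0, in the Sey line, with Dab1 and Adamts3 farthest from 0.

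In Leca4 and in Leca2 mutants limma called 0 of the 24 pathway genes, where 5.62% and 0.477% of all genes were called, and 3 and 2 had an unadjusted p under 0.05. Dab1 had a change of 0.07 ± 0.104 in Leca4 mutants and -0.09 ± 0.104 in Leca2 mutants. The difference between lines was called for 4 of the 24 genes between Sey and Leca4 (Dab1, Cdh2, Nck2 and Lrp8), and for 6 between Sey and Leca2 (Dab1, Lrp8, Nck2, Fyn, Dab2ip and Cdh2), each lower in Sey, where 6.08% and 3.26% of all genes were lower. For Dab1 these differences were -0.95 ± 0.147 and -0.80 ± 0.147.

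Several of the 8 genes are also made by other cells that the dissection could hold, and markers of those cells were read on the same arrays. Their counts in Sey mutants stand beside 10.7% of all genes called higher and 9.41% lower. Genes of the ventral telencephalon and of GABAergic neurons, where calretinin is also made, had an array mean between 8.26 and 8.871 in Sey mutants, against 6.789 to 7.134 in littermates. Of these 17 genes 9 rose and 0 fell in Sey mutants, among them Dlx5 (3.76 ± 0.274) and Gsx2 (3.15 ± 0.285), while Lhx6, Sst and Npy were not called. In the Leca4 and Leca2 lines 0 of the 17 were called in either direction, where 5.62% and 0.477% of all genes were called. The part of these cells in the Calb2 value was not tested.

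Genes of the thalamic eminence and diencephalon, where Lhx1, Lhx5 and Ebf factors are also made, had an array mean between 6.84 and 6.883 in Sey mutants, against 6.03 to 6.174 in littermates. Of 12 tested, 4 rose and 1 fell, against the same 10.7% and 9.41% of all genes. The median log2 change of the 12 was 0.138, so the gap between the means came from some of the genes. The means include genes whose littermate values lay at or below the 40th percentile. The homeodomain genes Uncx and Gbx2 were at least 3.47-fold and 2.34-fold higher in Sey mutants, with all littermate arrays at or below the 40th percentile (adjusted p = 8.8e-07 and 1.09e-12 in limma). Lhx9 rose by 1.73 ± 0.278 and Foxp2 by 0.83 ± 0.126, and the thalamic marker Tcf7l2 fell by 0.39. Gata2, Tal1, Barhl1 and Lmx1b were not called. Their part in the Lhx1, Lhx5, Ebf2 and Ebf3 values was not tested.

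The sources of Cajal-Retzius cells were read against these shares too. The septal list had 3 of 8 genes higher in Sey mutants (Zic1, Zic2 and Zic4) and none lower, with array means of 7.174 to 7.529, against 6.924 to 7.035 in littermates. The antihem list had 6 of 8 lower (Cdh4 by 1.75, Nrg3 by 1.08, Nrg1, Sfrp1, Sfrp2 and Tgfa) and none higher, with array means of 7.382 to 7.528, against 7.955 to 7.991. The hem and choroid plexus list had 3 of 13 higher (Wnt5a by 1.21 ± 0.19, Axin2 and Lef1) and 1 lower (Rspo3, which fell by 0.92). Wnt8b (mean 9.053 in Sey mutants, 7.485 in littermates) and Rspo1 (7.062 and 5.71) were not called, but all mutants lay above all littermates. Such separation held for 16.5% of all genes. The choroid plexus marker Ttr had a change of -0.13 and the hem and roof plate gene Msx1 of 0.00, neither called. The array means of this list were 7.036 to 7.525 in Sey mutants, against 6.976 to 7.082 in littermates, and overlapped. Each part in the Cajal-Retzius values was not tested.

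The same lists were read in the other lines, where 5.62% (Leca4) and 0.477% (Leca2) of all genes were called. In Leca4 mutants Wnt5a (0.93 ± 0.19) and Bmp7 (0.63 ± 0.131) rose among hem genes, Dbx1 rose (2.52 ± 0.292) and Cdh4 fell (-0.72 ± 0.169) among antihem genes, and no septal gene was called. Dbx1 marks the progenitors of antihem and septal Cajal-Retzius cells, and the 8 Cajal-Retzius genes were not called beside it. In Leca2 mutants no hem or septal gene was called by limma. The median of the septal list was 0.297, against 0.29 in Sey mutants. In Leca2 mutants Zic4 had a change of 0.89 ± 0.277, Zic1 of 0.58 ± 0.185 and Zic2 of 0.47 ± 0.17, with adjusted p-values between 0.287 and 0.439. The septal genes Fgf17 and Six3 went the other way, with means of 5.525 and 6.168 in Leca2 mutants, against 6.012 and 6.281 in littermates. The antihem gene Fgf7 was at least 1.18-fold lower, with all mutant arrays at or below the 40th percentile (adjusted p = 0.0172 in limma).

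Markers of other layers and cells were also read in the Sey line, where 10.7% of all genes rose and 9.41% fell. Of 15 pan-neuronal genes 8 fell, among them Syt4 by 0.86 and Snap25 by 0.61, and 1 rose. Of 10 preplate and subplate genes 1 rose and 2 fell, of 12 meningeal and vascular genes 2 rose and 1 fell (near the shares of all genes), and of 6 genes of olfactory bulb projection neurons 1 rose and 3 fell. The chemokine Cxcl12, which the meninges release, holds Cajal-Retzius cells at the surface through Cxcr4. Cxcl12 fell by 2.55 in Sey mutants and by 1.44 in Leca2 mutants (adjusted p = 6.38e-09 and 0.000174 in limma). It was the only gene of the meningeal and vascular list called lower in either line. The other genes of the list did not move alike. Foxc1 and Col1a2 had means of 5.892 and 6.056 in Sey mutants, against 5.952 and 6.078 in littermates. Prrx1 and Zic1 were higher in Sey mutants, with means of 8.188 and 12.52 against 6.728 and 11.3. In Leca2 mutants Col1a2 had a mean of 6.796, against 6.205 in littermates, and was not called. Which cells account for the Cxcl12 change was not tested. In Leca4 mutants 3 of 10 preplate and subplate genes rose, where 5.62% of all genes were called in either direction. They were Ccn2 (by 2.43 ± 0.12), Crym (by 1.02 ± 0.232) and Nxph4 (by 0.40 ± 0.0616). None of the 8 Cajal-Retzius genes was called beside them.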

How the data were processed

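The deposited values are log2 expression values per probe set, which the authors made with RMA, per the submitters' processing notes. For RMA's settings and the genome build, the sources used here give nothing. Arrays of a line share nearly 1 distribution, so values appear to have been normalized per line. RNA was extracted with RNeasy Micro and amplified with MessageAmp Premier, per the labels' protocols. The number of arrays limits the precision.

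Of 45101 probe sets, 34945 named 1 gene. A probe set passed with 3 or more arrays above the 40th percentile of the array's non-control values (5.37 to 5.6), and the passing probe set with the highest mean represented its gene (13850 genes). One limma fit (limma 3.58.1, R 4.3.3) of the 6 groups over 21 arrays gave contrasts within and between lines, adjusted by Benjamini-Hochberg over all genes, two-sided. Errors after changes are standard errors. Where all arrays of a group lay at or below the 40th percentile, a fold is given as a bound from that level.

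The 8 genes and 12 further lists (170 symbols, 141 tested) were chosen with earlier results of these data known. Named were all 8 genes, up to 4 called genes per list with the smallest p, all called Reelin pathway and fate genes, and the genes of highest likeness. Further genes were named after their values were seen. Sex was read from Xist and Y-linked genes. Alternatives covered the filter, probe set choice, variance model, weights, scaling, thresholds, sex, replicate block, pooled 129 S6 controls and each array left out. The fit was tested on simulated data.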

Additional observations from a re-analysis of the deposited data

Results flagged for a closer look

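The differences between lines stood out among the results, since the test of the difference itself passed for 20 pairs of gene and lines. Between Sey and Leca4 the Sey change was higher by 1.21 for Lhx5, 1.038 for Lhx1, 1.001 for Calb2, 0.9769 for Ebf3 and 0.7324 for Trp73 on the log2 scale. In the Reelin pathway it was lower, with differences of -0.9523 for Dab1, -0.4187 for Cdh2, -0.3916 for Nck2 and -0.3874 for Lrp8.

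Between Sey and Leca2 the Sey change was higher by 1.541 for Ebf2, 1.062 for Lhx5, 1.025 for Calb2, 0.9306 for Ebf3 and 0.7797 for Lhx1. In the Reelin pathway the differences were -0.796 for Dab1, -0.4957 for Lrp8, -0.4111 for Nck2, -0.392 for Cdh2, -0.3286 for Dab2ip and -0.2693 for Fyn. Both sets share the Sey arrays, and strain goes with line. The second Lhx1 probe set was not called in either difference.

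In the groups of 4 arrays, 24 combinations of group and Cajal-Retzius gene were looked at for a lone array far from the others, and 0 had one by Dixon's criterion.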

How the results depend on the processing

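Over the alternatives, no called change turned its sign, but uncalled changes of the 8 genes did so 39 times. These were most often Calb2 between Leca4 and Leca2 (9 of 34 alternatives), and Lhx5 and Nhlh2 in Leca4 and Trp73 in Leca2 (5 of 35 each), so the sign of small uncalled values is not settled. The 6 calls among the 8 genes in Sey mutants became 4 to 7, and those in Leca4 and Leca2 mutants stayed at 0. The differences between Sey and Leca4 fell from 5 called genes to 3 with the replicate block and to 3 with a term for sex, and ranged from 4 to 6 with 1 array left out. Those between Sey and Leca2 fell from 5 to 3 with the replicate block and to 3 with the sex term, and ranged from 3 to 6 with 1 array left out. For the differences between Leca4 and Leca2 the count was 1 with array weights and 1 at an adjusted p under 0.1, and 0 to 1 with 1 array left out, the 1 gene being Ebf2. The Reelin pathway count in Sey mutants, 8, was 3 with a change of at least 1.4-fold and 2 with male embryos only. In Leca4 mutants it was 1 with probe sets averaged per gene, 2 at an adjusted p under 0.1, 1 with all 129 S6 controls together, and 0 to 1 with 1 array left out (1 without Leca4 control 2 or Leca2 mutant 1). In Leca2 mutants it was 2 with all 129 S6 controls together. Counts of all genes called moved by over 1.5 times in places. In Sey mutants they were 2791, with 1057 at 1.4-fold and 949 with male embryos only. In Leca4 mutants they were 779, with 400 on the line's arrays alone, 450 with the block, 330 at 1.4-fold and 512 without mutant 1. In Leca2 mutants they were 66, with 27 on the line's arrays alone, 28 with the block, 121 with weights, 236 with pooled controls and 40 without mutant 2. For Sey against Leca4 they were 1778, with 1015 (block) and 1043 (1.4-fold). For Sey against Leca2 they were 927, with 559 (block), 293 (sex), 1411 (adjusted p under 0.1), 582 without Sey control 1 and 529 without Leca2 control 1. For Leca4 against Leca2 they were 329, with 148 (block), 499 (weights), 611 (adjusted p under 0.1) and 201 without Leca2 control 1. The causes were not tested, except that a fold minimum can only remove calls.

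Whether replicate numbers pair the samples was not settled. Same-numbered mutants and littermates had correlations of deviations of 0.0892, 0.0272 and 0.105 in the Sey line. These were 0.103, -0.44 and -0.191 in the Leca4 line and 0.338, -0.0535 and 0.228 in the Leca2 line. Differently numbered pairs were not set beside them, so the values cannot show whether the samples were paired. With the replicate block 5 of the 8 genes were called in Sey mutants.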
